A study of Mus musculus with 16 samples.

Results

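The genes described here encode glycosyltransferases, the enzymes that build the sugar chains of mucins, other glycoproteins and glycolipids. They were chosen by symbol: every gene whose name begins with St3gal, St6gal, St6galnac, St8sia, Fut, B3gnt, B3galt, B4galt, B4galnt, Mgat, Galnt or Gcnt and goes on with a digit or the letter l. The rule gave 85 genes, and all 85 had a value in each of the 8 groups, among 25892 genes and unnamed features tested. The members were chosen with earlier results of these data known. Of 159 array features of these genes, 153 had a value in every group and were kept. Among the genes, 53 had more than 1 kept feature, and their features were averaged. A total of 4 members (B4galt5, Galntl5, Mgat4d and St6galnac1) had no value on at least 1 array, and the fit left those arrays out for them.

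Glycan chains are made stepwise in the Golgi. The Galnt enzymes start an O-glycan by placing N-acetylgalactosamine (GalNAc) on serine or threonine, C1galt1 and the Gcnt enzymes set the core, the Mgat enzymes branch N-glycans, the B3gnt, B3galt and B4galt enzymes lengthen chains, and sialyl- and fucosyltransferases cap them. In the colon these caps cover the mucus, serve as binding sites and food for bacteria, and form ligands of lectins on leukocytes and endothelium.

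Colon RNA was measured on 16 Agilent arrays with 2 channels, each comparing a pool of equal amounts of RNA of 2 to 3 mice (Cy3) with 1 common RNA made from Swiss mouse gut, kidney, liver and fetuses (Cy5). The tested animals were male Il10-/- mice (B6.129P2-Il10tm1Cgn/J), which lack interleukin 10 in every cell and develop colitis in the presence of gut bacteria, and they were set against male C57BL/6J mice, which are not named as littermates. In each genotype 6 mice ate each diet for 6 weeks: EPA and AA (fat-free AIN-76A with 1% corn oil and 3.7% eicosapentaenoic or arachidonic acid), OA (the same with 3.7% oleic acid) and CO (AIN-76A as such). All mice had been gavaged with Enterococcus faecalis, E. faecium and complex intestinal flora, had their food held to the intake of the Il10-/- mice, and were killed past 77 days of age. Each of the 8 groups has 2 arrays. Whether its 2 pools come from separate mice is not stated, and a p-value here reflects only the spread between arrays, which may be technical. One array, Il10-/- OA replicate 1, carries OA in its title and EPA in its source name, and was kept as OA.

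Values are log ratios of colon to reference RNA, taken as base 2 after limma's convention, since the base is not stated. Between 37005 and 40827 features had a value on an array and array medians lay between -0.019 and -0.001. Precision is limited by having 2 arrays a group. The direction, sample over reference, was settled by 12 genes of liver, kidney and other tissues in the reference RNA, with a median below 0 on 16 of 16 arrays. On every array 326 to 985 features share 1 identical value and so do not measure their own gene. The 2 C57BL/6J CO arrays agreed least with each other, with an array weight of 0.301 where the other groups had 0.842 to 1.6. The 2 arrays of a group share 1 weight, so it does not show a distance from other groups. Among the members the shared value touched 1 feature of Mgat4b on 16 arrays and 1 feature of B4galt1 on 3 arrays. Il10 itself averaged 0.58 ± 0.13 in Il10-/- colon and -0.17 ± 0.08 in C57BL/6J colon (SD, n = 8 arrays each). Where its probe lies relative to the deleted sequence is not known here, so this does not check the labels. In pooled tissue, fewer cells of a type and less RNA per cell cannot be told apart.

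Averaged over the 4 diets, genotype changed 25 of the 85 glycosyltransferases (29.4%) by limma's moderated test at an adjusted p under 0.05, against 17.3% of all genes and unnamed features tested and 19.7% of the 17961 named genes with a chromosome. Of these, 12 were higher in the Il10-/- colon (background 9.14%) and 13 lower (background 8.12%). At an unadjusted p under 0.05 there were 33 members, against 28.2% of all features. The median difference of the 85 members was -0.01 and that of all features -0.01, and 38 members lay above 0 and 47 below. The changes were mostly small: 2 members differed by more than 1 on the log2 scale, 5 by 0.5 to 1 and 18 by less than 0.5. Of the 25, 22 had the same sign on all 4 diets, which is favoured by their choice on the mean of these same differences. On 9 members (10.6%) the Il10-/- arrays and the C57BL/6J arrays did not overlap, against 4.63% of all features: B3gnt5, B3gnt7, B4galt3, Fut2, Fut7, Fut8 and Gcnt1 were above on every Il10-/- array, and Mgat5 and St6galnac2 below.

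**Figure D1:**
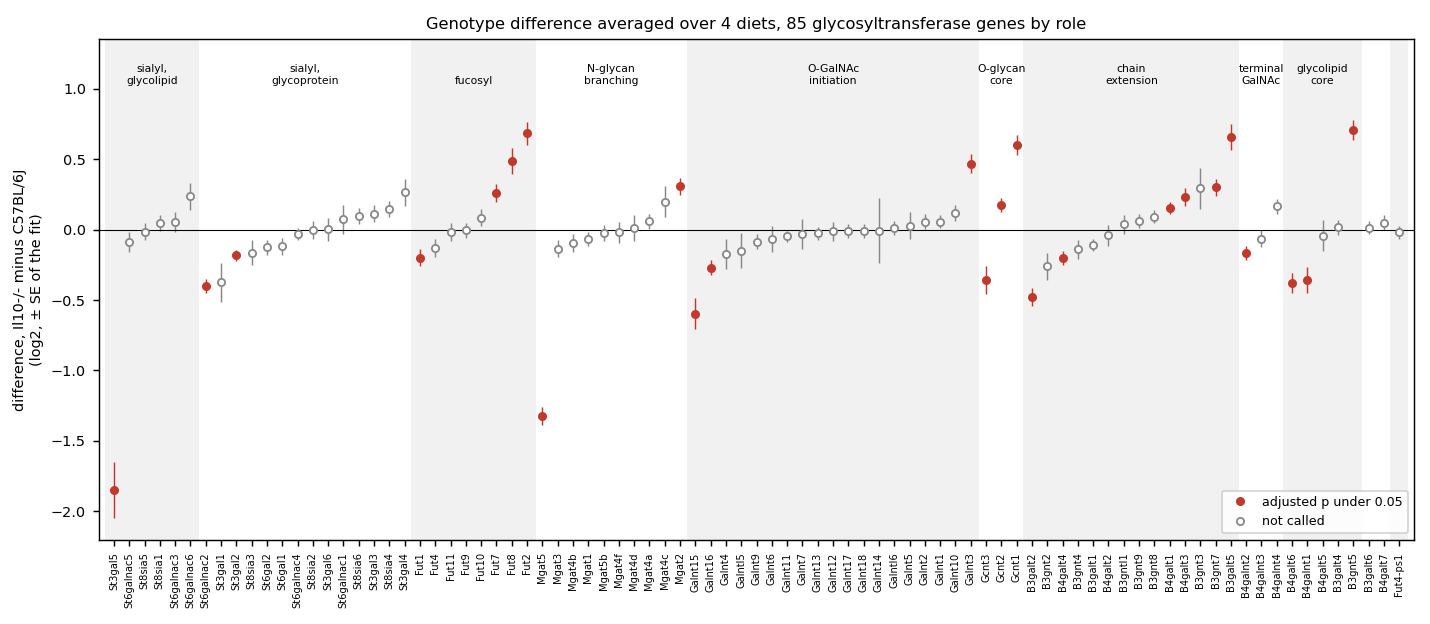
Difference between Il10-/- and C57BL/6J colon averaged over 4 diets (vertical axis, log2, with the SE of the fit) for each of the 85 genes, grouped by role along the horizontal axis and ordered by size; filled points have an adjusted p under 0.05. The 25 filled points lie on both sides of 0, with St3gal5 and Mgat5 far below the rest.

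The sialyltransferases, which add sialic acid, had 3 of 20 genes called, against 17.3% of all features: 1 of 6 that act mainly on glycolipids and 2 of 14 that act mainly on glycoproteins. These 3 fell, while 1 feature of St6galnac6 (0.40) and 1 of St3gal4 (0.38) were called higher when tested singly. St3gal5, the GM3 synthase that makes the first ganglioside from lactosylceramide, had the largest difference of all members. In Il10-/- colon St3gal5 stood at -1.59 and -1.20 on EPA, -2.01 and -1.34 on AA, -1.80 and -1.88 on OA and -1.58 and -2.21 on CO. In C57BL/6J colon it stood at -1.31 and 0.25 on EPA, 0.69 and 0.63 on AA, 0.44 and 0.56 on OA and -0.28 and 0.18 on CO. All C57BL/6J arrays but 1 lay above every Il10-/- array, and C57BL/6J EPA replicate 1, at -1.31, lay inside the Il10-/- range. St3gal5 averaged -1.70 ± 0.34 in Il10-/- colon and 0.15 ± 0.67 in C57BL/6J colon (SD, n = 8 each), a difference of -1.85 ± 0.20 (SE, adjusted p = 4.14e-05). The St3gal5 difference was -2.04 ± 0.13 without that array (adjusted p = 2.85e-06) and -1.65 ± 0.13 without the other C57BL/6J EPA array (adjusted p = 1.07e-05). It was called on AA (-2.34, adjusted p = 0.0123), OA (-2.34, adjusted p = 0.00385) and CO (-1.85, adjusted p = 0.0131), and its difference on EPA was -0.87.

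St6galnac2, which puts sialic acid on the GalNAc of O-glycans, averaged -0.19 ± 0.14 in Il10-/- colon and 0.21 ± 0.10 in C57BL/6J colon (SD, n = 8 each), a difference of -0.40 ± 0.05 (SE, adjusted p = 1.51e-04). St3gal2, which sialylates the galactose of core 1 O-glycans and of gangliosides, was lower by a smaller amount, -0.18 ± 0.04 (adjusted p = 0.00785). St3gal1, another enzyme of core 1 O-glycans, had the largest difference among members that were not called, -0.38 ± 0.14 (adjusted p = 0.0825). St3gal4, which caps lactosamine, stood at 0.27 ± 0.10 (adjusted p = 0.0848) and St6galnac6, a ganglioside sialyltransferase, at 0.24 ± 0.09 (adjusted p = 0.118).

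Mgat5, the enzyme that adds the last branch of tetra-antennary N-glycans, carriers of galectin ligands, was the member with the smallest p. In Il10-/- colon Mgat5 stood at -0.48 and -0.45 on EPA, -0.49 and -0.21 on AA, -0.77 and -0.62 on OA and -0.67 and -0.62 on CO. In C57BL/6J colon it stood at 0.92 and 0.87 on EPA, 0.92 and 0.56 on AA, 0.49 and 0.55 on OA and 0.85 and 1.11 on CO. The lowest C57BL/6J array was above the highest Il10-/- array, and the difference was -1.32 ± 0.07 (SE, adjusted p = 2.37e-07). Mgat5 was the only member called on all 4 diets (-1.36 on EPA, -1.09 on AA, -1.21 on OA and -1.62 on CO).

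These Mgat5 values come from 1 of the 2 Mgat5 features of the array, whose accession is a cDNA clone. The other, with a RefSeq accession, had values on 12 arrays and not in every group, and was left out by the rule. On it Mgat5 lay between -0.32 and 0.26 (median 0.11) on 7 Il10-/- arrays and between -0.28 and 0.20 (median -0.02) on 5 C57BL/6J arrays, so the groups overlapped and the feature did not show the difference. Mgat5 also lies on chromosome 1, the chromosome of Il10, 25 tested genes away from it in the RefSeq order. Among the 200 tested genes nearest to Il10, 19.5% were called, and on the whole chromosome 21%, against 19.7% of all named genes placed on a chromosome. The B6.129P2 name records that the Il10 allele was made in another strain. Sequence of that strain near Il10 was not analysed here, and its part in the Mgat5 value was not tested.

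Of the 10 Mgat genes, placed together as N-glycan branching, Mgat2 alone rose and Mgat5 alone fell, against 17.3% of all features called. Mgat2 adds the branch that turns a hybrid N-glycan into a complex one. It averaged -0.29 ± 0.19 in Il10-/- colon and -0.60 ± 0.12 in C57BL/6J colon (SD, n = 8 each), a difference of 0.31 ± 0.06 (SE, adjusted p = 0.00316). Mgat1, Mgat3, Mgat4a, Mgat4b, Mgat4c, Mgat4d, Mgat4f and Mgat5b were not called.

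Among the 8 fucosyltransferases 3 rose and 1 fell, against 17.3% of all features called. Fut2, the secretor enzyme that makes the H antigen on mucins and epithelium, stood in Il10-/- colon at 1.20 and 1.12 on EPA, 1.16 and 0.76 on AA, 1.24 and 0.96 on OA and 1.03 and 1.43 on CO. Fut2 in C57BL/6J colon stood at 0.26 and 0.33 on EPA, 0.23 and 0.45 on AA, 0.69 and 0.53 on OA and 0.55 and 0.39 on CO. Every Il10-/- array was above every C57BL/6J array, and the difference was 0.68 ± 0.08 (SE, adjusted p = 8.4e-05).

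Fut8, the only enzyme that adds core fucose to N-glycans, stood in Il10-/- colon at 0.50 and 0.34 on EPA, 0.40 and 0.24 on AA, 0.71 and 0.36 on OA and 0.43 and 0.63 on CO. Fut8 in C57BL/6J colon stood at 0.10 and -0.30 on EPA, -0.11 and 0.10 on AA, 0.10 and -0.16 on OA and 0.21 and -0.23 on CO. The arrays of the genotypes did not overlap, by a narrow margin, and the difference was 0.49 ± 0.09 (SE, adjusted p = 0.00269). Fut7, which completes sialyl Lewis X, the selectin ligand of leukocytes, was higher by 0.26 ± 0.06 (adjusted p = 0.0126). Fut1, the second enzyme of the H antigen, was lower by a difference of -0.20 ± 0.06 (adjusted p = 0.0394), opposite to Fut2. Fut4, Fut9, Fut10 and Fut11 were not called, nor was the pseudogene Fut4-ps1 (-0.02 ± 0.04). Tested singly, 1 feature of Fut10 (0.31) was called higher and the other (-0.14) was not called.

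The enzymes that shape mucin-type O-glycans did not move together. Of the 19 Galnt genes, placed together as the family that starts the chain, 1 rose and 2 fell, against 17.3% of all features called. Galnt3 averaged 0.84 ± 0.14 in Il10-/- colon and 0.37 ± 0.12 in C57BL/6J colon (SD, n = 8 each), a difference of 0.47 ± 0.07 (SE, adjusted p = 4.25e-04). Galnt15 stood in Il10-/- colon at -0.03 and 0.04 on EPA, -0.18 and 0.19 on AA, -0.73 and -0.39 on OA and -0.50 and -0.39 on CO. Galnt15 in C57BL/6J colon stood at 0.57 and 0.27 on EPA, 0.88 and 0.07 on AA, 0.12 and -0.01 on OA and 0.58 and 0.30 on CO. The Galnt15 groups overlapped, with a difference of -0.60 ± 0.11 (SE, adjusted p = 0.0029), and Galnt16 was lower too (-0.27 ± 0.05, adjusted p = 0.00411). The other 16 Galnt genes had differences between -0.17 (Galnt4) and 0.12 (Galnt10). Tested singly, 1 feature of Galnt4 (-0.32) and 1 of Galnt11 (-0.16) were called lower.

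All 3 enzymes of the rule that set the core 2 or I branch were called, 2 higher and 1 lower, against 17.3% of all features. Gcnt2 lost its call in 8 of 23 other settings and Gcnt3 in 9. Gcnt1, the core 2 enzyme known from leukocytes and other cells, stood in Il10-/- colon at -1.08 and -0.90 on EPA, -0.93 and -1.0 on AA, -1.13 and -1.11 on OA and -0.92 and -1.17 on CO. Gcnt1 in C57BL/6J colon stood at -1.46 and -1.84 on EPA, -1.87 and -1.73 on AA, -1.67 and -1.77 on OA and -1.17 and -1.54 on CO. The groups met without overlapping at -1.17, and the difference was 0.60 ± 0.07 (SE, adjusted p = 1.15e-04). Gcnt2, which branches poly-lactosamine into the I antigen, rose by 0.18 ± 0.05 (adjusted p = 0.0255). Gcnt3, the core 2 and core 4 enzyme of gut mucins, was lower: 1.39 ± 0.30 in Il10-/- colon and 1.74 ± 0.21 in C57BL/6J colon (SD, n = 8 each), a difference of -0.36 ± 0.10 (SE, adjusted p = 0.0264).

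Of the 14 enzymes that lengthen chains, 4 rose and 2 fell, against 17.3% of all features called. B3galt5, which makes type 1 chains in gut epithelium, stood in Il10-/- colon at 0.36 and 0.42 on EPA, 0.48 and 0.58 on AA, 0.23 and 0.72 on OA and 0.13 and 0.55 on CO. B3galt5 in C57BL/6J colon stood at -0.28 and -0.0017 on EPA, -0.92 and -0.68 on AA, -0.58 and -0.18 on OA and 0.37 and 0.47 on CO. The genotypes were apart on EPA, AA and OA and overlapped on CO, and the difference over all diets was 0.66 ± 0.09 (SE, adjusted p = 3.89e-04). B3galt2, a galactosyltransferase of the same family, went the other way, at 0.05 ± 0.14 in Il10-/- colon and 0.53 ± 0.30 in C57BL/6J colon (SD, n = 8 each), a difference of -0.48 ± 0.06 (SE, adjusted p = 2e-04).

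B3gnt7, a poly-lactosamine enzyme, rose by 0.30 ± 0.06 (adjusted p = 0.00362). The galactosyltransferases B4galt3 (0.23 ± 0.06, adjusted p = 0.0251) and B4galt1, the main enzyme of type 2 chains (0.15 ± 0.04, adjusted p = 0.0314), also rose. B4galt4 fell by 0.20 (SE 0.05, adjusted p = 0.0167). B3gnt2 was not called, though 1 of its features (-0.35) was called lower when tested singly and the other (-0.18) was not. Of the 3 enzymes that add terminal GalNAc, B4galnt2, which makes the Sd(a) antigen of the colon, fell by 0.17 (SE 0.05, adjusted p = 0.0312). B4galt7 and B3galt6, which build the linker of proteoglycans, were not called, with differences of 0.05 ± 0.06 (adjusted p = 0.618) and 0.01 ± 0.05.

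Of the 5 enzymes that build the cores of glycolipids 1 rose and 2 fell, against 17.3% of all features called. B3gnt5, which diverts lactosylceramide into the lacto and neolacto series, stood in Il10-/- colon at -0.0063 and 0.13 on EPA, 0.42 and 0.04 on AA, 0.71 and 0.53 on OA and 0.61 and 0.68 on CO. B3gnt5 in C57BL/6J colon stood at -0.25 and -0.28 on EPA, -0.67 and -0.35 on AA, -0.33 and -0.18 on OA and -0.32 and -0.17 on CO. Every Il10-/- array was above every C57BL/6J array, and the difference, 0.71 ± 0.07 (SE, adjusted p = 2.14e-05), was the largest rise among the members. B4galt6, which makes lactosylceramide, fell by 0.38 (SE 0.07, adjusted p = 0.00288), and B4galnt1, which turns GM3 into GM2, fell by 0.36 (SE 0.09, adjusted p = 0.0187). B4galt5, the other lactosylceramide synthase (-0.04 ± 0.11), and B3galt4, which makes GM1 (0.02 ± 0.05), were not called.

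**Figure D2:**
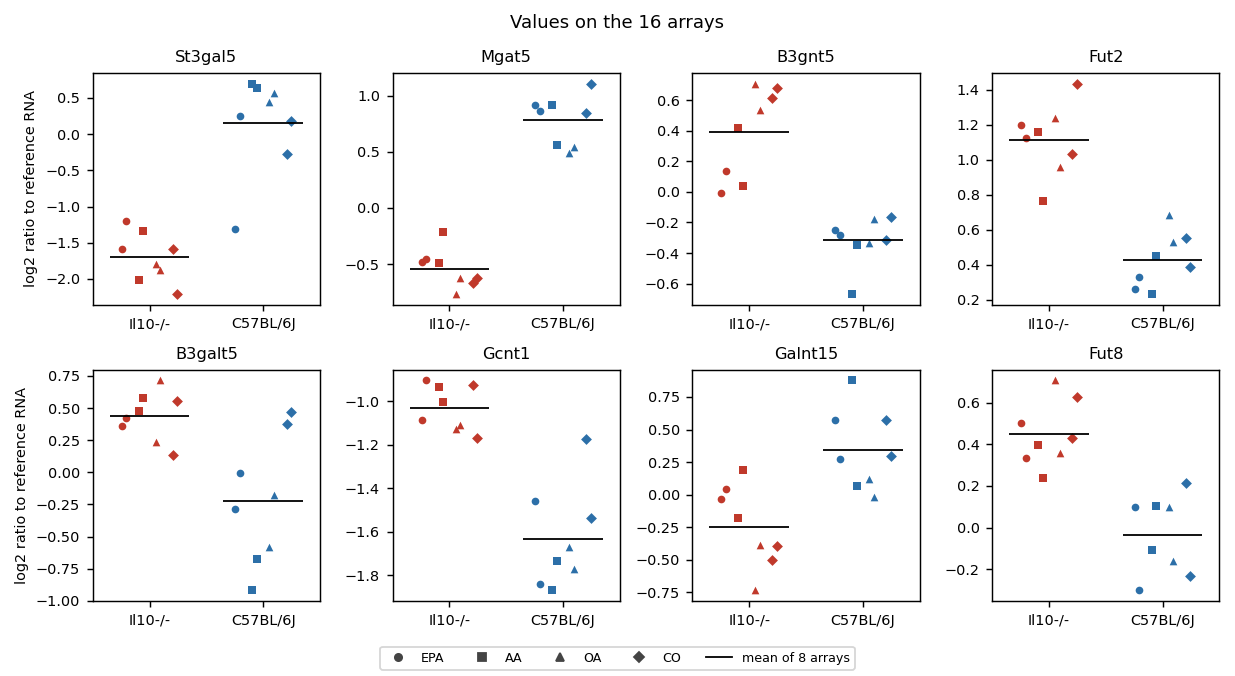
Log2 ratio to the reference RNA on each array (points, shape by diet; bars, mean of 8 arrays) for the 8 called members of largest difference, Il10-/- left of C57BL/6J. The genotypes do not overlap for Mgat5, B3gnt5, Fut2, Gcnt1 and Fut8, and for St3gal5 only C57BL/6J EPA replicate 1, at -1.31, lies among the Il10-/- arrays.

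Features of 1 gene often differed in size. Counting only features with a value in every group, 12 of the 25 called members had 1 feature and 13 had several. In 5 of the 13 every such feature was called in the same direction when tested singly (B3galt2, B3gnt5, Fut2, Fut8 and Galnt3). The features of B3gnt5 gave 0.29 and 1.10, those of Fut2 0.32 and 1.04, and those of Gcnt1 0.16, 0.48 and 1.17. For B3gnt7 (0.07 and 0.53), St3gal2 (-0.02 and -0.38), B4galnt1 (-0.12 and -0.59) and Gcnt2 (0.13 and 0.22) 1 of the 2 features was called singly. St6galnac2 gave -0.13, -0.25 and -0.81. B4galt3 had 1 feature at 0.47, called, and 1 at 0.0. Among these features, B4galt1 was the only called member with 1 of the opposite sign (-0.11, 0.23 and 0.35), and that feature was not called. Mgat5 and B3galt2 each had a further feature that was left out and not tested. The median of that feature was higher on Il10-/- than on C57BL/6J arrays (Mgat5 0.11 against -0.02, B3galt2 0.01 against -0.09), with overlapping values.

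**Figure D3:**
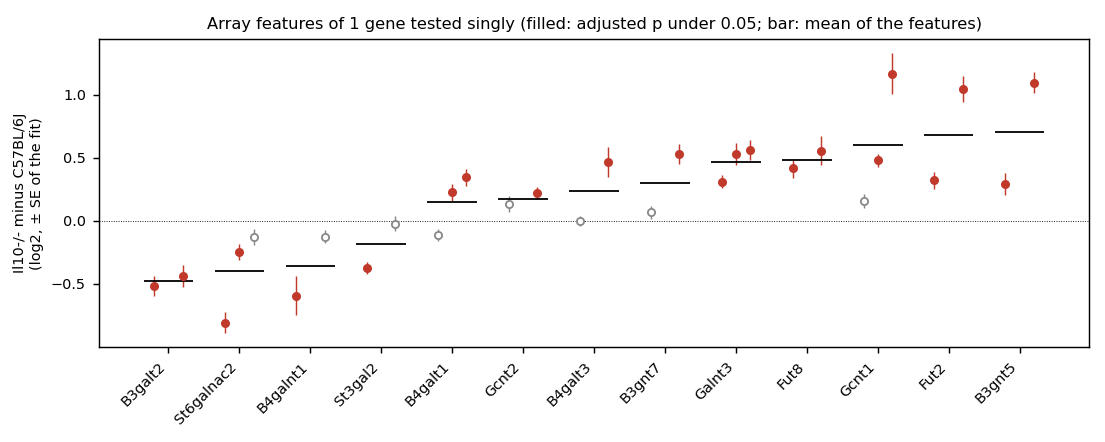
Genotype difference (log2, with the SE of the fit) of each kept array feature tested singly, for the 13 called members with several kept features. The bar is the value of the averaged gene and filled points have an adjusted p under 0.05. Features of B3gnt5, Fut2, Gcnt1 and St6galnac2 spread widely on 1 side of 0, and B4galt1 has 1 feature below 0.

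Promoter sequence was read from RefSeq (GRCm38.p6, 250 bases before to 50 after the start), which gave a window for 63 of the 85 members and for 19 of the 25 called ones, 11 higher and 8 lower. The first 3 windows printed belong to the largest falls and the largest rise, and the last 2 to higher members with a match to the interferon gamma-activated site. They are St3gal5 (chr6:72097358-72097657, plus strand), Mgat5 (chr1:127204736-127205035, plus strand), B3gnt5 (chr16:19759984-19760283, plus strand), Mgat2 (chr12:69183908-69184207, plus strand) and B4galt1 (chr4:40853935-40854234, minus strand). Sequences run 5′ to 3′ on the gene's strand, and capitals mark the match.
St3gal5: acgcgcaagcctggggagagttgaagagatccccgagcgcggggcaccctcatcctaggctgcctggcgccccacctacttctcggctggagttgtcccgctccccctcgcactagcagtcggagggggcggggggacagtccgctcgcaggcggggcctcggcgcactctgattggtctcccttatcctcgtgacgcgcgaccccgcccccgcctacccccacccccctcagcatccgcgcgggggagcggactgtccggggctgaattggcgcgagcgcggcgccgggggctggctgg
Mgat5: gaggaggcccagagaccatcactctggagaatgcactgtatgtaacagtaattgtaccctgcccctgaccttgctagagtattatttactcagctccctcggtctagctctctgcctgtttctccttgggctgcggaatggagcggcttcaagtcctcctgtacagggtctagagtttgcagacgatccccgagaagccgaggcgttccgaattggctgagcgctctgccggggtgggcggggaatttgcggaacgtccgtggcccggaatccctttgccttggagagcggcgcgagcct
B3gnt5: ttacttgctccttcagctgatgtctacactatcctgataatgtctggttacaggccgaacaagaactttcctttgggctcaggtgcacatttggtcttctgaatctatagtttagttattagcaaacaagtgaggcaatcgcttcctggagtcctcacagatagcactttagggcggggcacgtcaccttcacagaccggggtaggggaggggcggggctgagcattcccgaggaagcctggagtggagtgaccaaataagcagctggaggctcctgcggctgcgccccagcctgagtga
Mgat2: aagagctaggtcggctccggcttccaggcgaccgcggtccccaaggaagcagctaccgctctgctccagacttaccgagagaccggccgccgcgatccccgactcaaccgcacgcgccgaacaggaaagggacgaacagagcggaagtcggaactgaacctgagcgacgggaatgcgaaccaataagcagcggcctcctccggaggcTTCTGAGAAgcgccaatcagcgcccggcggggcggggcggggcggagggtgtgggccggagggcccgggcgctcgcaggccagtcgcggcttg
B4galt1: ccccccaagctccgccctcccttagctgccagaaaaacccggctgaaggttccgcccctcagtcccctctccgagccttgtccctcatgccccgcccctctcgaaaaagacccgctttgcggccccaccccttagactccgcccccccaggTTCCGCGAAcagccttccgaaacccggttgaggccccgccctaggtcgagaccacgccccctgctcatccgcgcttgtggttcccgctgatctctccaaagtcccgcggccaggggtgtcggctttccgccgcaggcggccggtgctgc
The letters TTCNNNGAA of that site were sought on both strands, as were GAAA followed after 2 bases by GAAA (the interferon-stimulated response element), TGANTCA (AP-1), TTTATG (CDX), GAACA followed after 3 bases by TGTTC (the glucocorticoid response element), CAAAGTCCA (HNF4) and the NF-kB motif. TTCNNNGAA occurred in 4 of the 11 higher members (B3galt5, B4galt1, Gcnt2 and Mgat2) and in 0 of the 8 lower ones. It occurred in 2 of the 44 not called. Among all 63 members with a window it occurred in 6 (9.52%), near the 9.55% of all genes with a window. Among the 4, B4galt1 lost its call in 12 of 23 other settings and Gcnt2 in 8, while B3galt5 and Mgat2 kept theirs. TTTATG occurred in 3 of 11 higher members (B3galt5, Gcnt1 and Gcnt2), 0 of 8 lower and 13.6% of all genes, and TGANTCA in 0 of 11 higher, 2 of 8 lower (Galnt15 and Galnt16) and 8.97% of all genes. Each of these motifs occurred in 5 of all 63 members (7.94%). The NF-kB motif (9.55% of all genes), the interferon-stimulated response element (3.99%), CAAAGTCCA (0.555%) and the glucocorticoid response element (0.0555%) were in no window of a called member. The windows of St3gal5, Mgat5 and B3gnt5 hold none of the 7 motifs. The motifs were chosen with the results known, some genes have several windows, and a match is a description of the letters only.

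Taken diet by diet, the genotype difference was called in 4 of 85 members on EPA (4.71%, background 1.63%), 6 on AA (7.06%, background 1.32%), 10 on OA (11.8%, background 5.06%) and 13 on CO (15.3%, background 8.57%). Higher were 2 members on EPA (background 1.19%), 3 on AA (0.896%), 5 on OA (2.92%) and 5 on CO (5.09%). Lower were 2 on EPA (0.433%), 3 on AA (0.421%), 5 on OA (2.13%) and 8 on CO (3.48%). A total of 18 members were called on at least 1 diet: Mgat5 on 4, B3galt2, B3gnt5, Gcnt1 and St3gal5 on 3, B3galt5, Fut2, Galnt3 and St6galnac2 on 2, and 9 on 1. Those called on OA only were Gcnt3 (-0.79), St3gal2 (-0.39) and St8sia4 (0.43), and those on CO only B4galt3 (0.52), B4galt4 (-0.38), Fut4 (-0.47), Galnt15 (-0.88), Mgat2 (0.46) and St6gal1 (-0.63). Fewer calls on a diet do not show a smaller effect, and the genotype by diet interaction was called for 0 of 85 members by limma (0% of all features, with 8 members and 6.67% of all features at an unadjusted p under 0.05).

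Of the 18 members, 3 were not called over all diets. St6gal1, which adds sialic acid to the galactose of N-glycans, differed on CO by -0.63 ± 0.12 (adjusted p = 0.00851), with -0.49 and -0.37 in Il10-/- colon and 0.36 and 0.04 in C57BL/6J colon. Fut4, which makes Lewis X, differed on CO by -0.47 ± 0.13 (adjusted p = 0.0377), with 0.16 and 0.36 in Il10-/- colon and 0.94 and 0.52 in C57BL/6J colon. St8sia4, a polysialic acid synthase, differed on OA by 0.43 ± 0.11 (adjusted p = 0.0437), with -0.26 and -0.40 in Il10-/- colon and -0.70 and -0.83 in C57BL/6J colon. In each case both Il10-/- arrays lay on 1 side of both C57BL/6J arrays. The members were picked by a call on these same arrays, so this adds no support. With array weights St6gal1 (adjusted p = 0.0647) and Fut4 (adjusted p = 0.156) were no longer called on CO, nor were they when only the compared groups were fitted (adjusted p = 0.173 and 0.357), while St8sia4 stayed called on OA in both (adjusted p = 0.005 and 0.0387).

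These counts by diet moved with the fit and with single arrays. Counts of members under other settings, here and below, are given without the share of all features. They therefore do not show shifts particular to these genes. With array weights 1 member was called on EPA and 1 on CO, Mgat5 in both, 7 on AA and 20 on OA. With only the compared groups fitted, 2 were called on EPA, 3 on AA, 15 on OA and 1 on CO, and Mgat5 was not called on AA (adjusted p = 0.0543). The 13 calls on CO became 21 without C57BL/6J CO replicate 1, 5 and 4 without Il10-/- CO replicates 1 and 2, and 8 and 8 without Il10-/- OA replicates 1 and 2. The 10 on OA became 4 and 3 without Il10-/- OA replicates 1 and 2, and 6 and 4 without C57BL/6J OA replicates 1 and 2. The 4 on EPA became 1 without Il10-/- EPA replicate 1, Il10-/- EPA replicate 2 or C57BL/6J EPA replicate 2, and 2 without either Il10-/- CO, Il10-/- OA or C57BL/6J OA array. The 6 on AA became 2 without Il10-/- AA replicate 1 and 1 without C57BL/6J AA replicate 1. Without the 4 CO arrays 21 members were called over the other diets, 19 of them among the 25, and without the 4 EPA arrays 22, all among the 25.

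**Figure D4:**
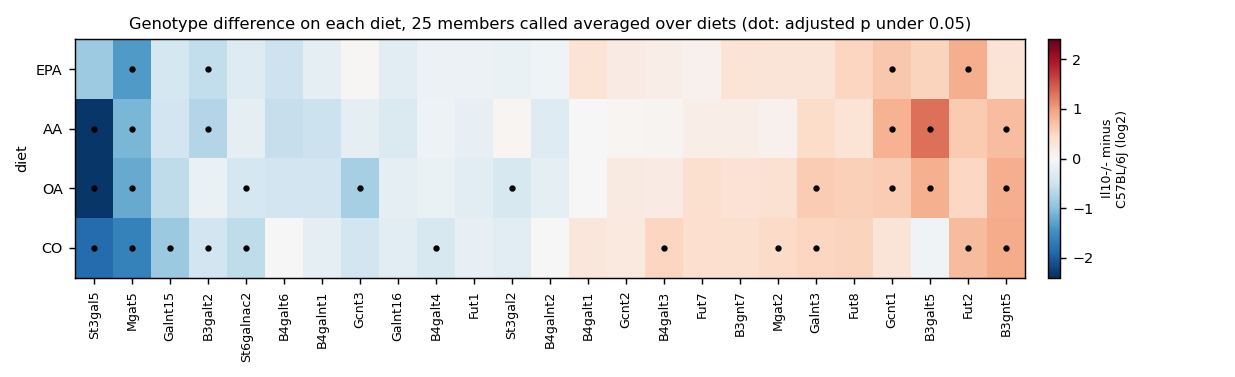
Genotype difference (colour, log2, Il10-/- minus C57BL/6J) on each diet (rows) for the 25 called members (columns, ordered by the averaged difference); a dot marks an adjusted p under 0.05 on that diet. Mgat5 is dotted on all 4 diets, and B3galt5 differs by 1.32 on AA and -0.08 on CO.

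Between diets within a genotype, no glycosyltransferase was called by limma in any of the 10 contrasts. In Il10-/- colon the counts at an unadjusted p under 0.05 were 6 of 85 for EPA against OA (4.27% of all features), 9 for AA against OA (7.15%), 5 for EPA against AA (3.39%), 0 for OA against CO (1.5%) and 9 for EPA and AA together against OA and CO (9.01%). At the adjusted threshold 0%, 0.00386%, 0%, 0% and 0.0811% of all features were called, in that order of contrasts. The member with the smallest p was B3gnt5, whose level was lower on EPA and AA, with a mean of 0.06 on EPA and 0.23 on AA, against 0.62 on OA and 0.64 on CO in Il10-/- colon. Its difference between those pairs of diets was -0.49 ± 0.10 (adjusted p = 0.115). St3gal3, a sialyltransferase of lactosamine (-0.35 ± 0.08, adjusted p = 0.173), and St6gal1 (0.30 ± 0.09, adjusted p = 0.292) came next.

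For EPA against OA in Il10-/- colon the smallest p-values belonged to B3gnt5 (-0.56 ± 0.14, adjusted p = 0.659), St3gal3 (-0.30) and Galnt15 (0.57). For AA against OA they belonged to Mgat2 (-0.38 ± 0.12, adjusted p = 0.611), St3gal3 (-0.37) and B3gnt5 (-0.39). Both comparisons share the OA arrays. For EPA against AA they were St8sia3 (0.45), Galnt17 (-0.24) and Galnt1 (-0.22), and for OA against CO B4galnt2 (0.18), B3gnt4 (-0.26) and Galnt18 (0.18), with adjusted p = 1 throughout. Without Il10-/- AA replicate 1, Mgat4c was called for AA against OA and 1 member for EPA and AA against OA and CO.

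For C57BL/6J colon the counts at an unadjusted p under 0.05 were 9 of 85 for EPA against OA (5.94% of all features), 5 for AA against OA (3.34%), 3 for EPA against AA (3.09%), 14 for OA against CO (11.2%) and 13 for EPA and AA against OA and CO (7.75%). At the adjusted threshold 0%, 0%, 0%, 0.0154% and 0.0193% of all features were called, in that order. B3galt2 was highest on the polyunsaturated diets, with a mean of 0.66 on EPA and 0.88 on AA, against 0.21 on OA and 0.35 on CO in C57BL/6J colon. Its difference between those pairs was 0.49 ± 0.09 (adjusted p = 0.134). It was followed by Fut4 (-0.36 ± 0.09, adjusted p = 0.309) and St3gal4 (0.51 ± 0.14, adjusted p = 0.337).

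B3galt5 differed by -0.80 ± 0.19 in C57BL/6J colon on OA against CO (adjusted p = 0.199), followed by B4galnt2 (0.41 ± 0.10) and St3gal4 (0.77 ± 0.19). For EPA against OA the smallest p-values belonged to B3galt2 (0.45), B3gnt2, a poly-lactosamine enzyme (-0.63), and St3gal2 (-0.25), each with adjusted p = 0.794. For AA against OA they belonged to B3galt2 (0.67 ± 0.12, adjusted p = 0.56), St3gal2 (-0.30) and Galnt16 (0.39). For EPA against AA they belonged to B3galt5 (0.66), St3gal5 (-1.19) and B4galt1 (-0.23), with adjusted p = 1. The OA against CO count of 0 became 8 without C57BL/6J CO replicate 1, and that of EPA and AA against OA and CO became 2 without it and 1 without C57BL/6J AA replicate 2. The shares of all features in these settings are not given here.

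Tests of any diet difference called 0 of 85 members in Il10-/- colon (0.00386% of all features, with 7 members and 4.85% of all features at an unadjusted p under 0.05), led by B3gnt5 (adjusted p = 0.539), St3gal3 and St6gal1, and 0 of 85 in C57BL/6J colon (0.00772% of all features, with 16 members and 8.04%), led by B3galt5 (adjusted p = 0.187), B3galt2 (adjusted p = 0.23) and St3gal4 (adjusted p = 0.285). Without C57BL/6J CO replicate 1 the count in C57BL/6J colon was 5. With the pool number as a block it was 1, B3galt5. The effect of EPA and AA against OA and CO differed between genotypes for 0 of 85 members (0% of all features, with 12 members and 8.5% of all features at an unadjusted p under 0.05), and the smallest p-values belonged to St6gal1 (0.57 ± 0.12, adjusted p = 0.163), Fut4 (0.47 ± 0.13, adjusted p = 0.262) and St3gal2 (0.27 ± 0.08, adjusted p = 0.337). Those of the interaction belonged to B3galt5 (adjusted p = 0.384), St6gal1 (adjusted p = 0.43) and Fut4 (adjusted p = 0.629). Without C57BL/6J CO replicate 1, 1 member was called for the first of these tests and 2 for the interaction, B4galt3 and St6galnac5.

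**Figure D5:**
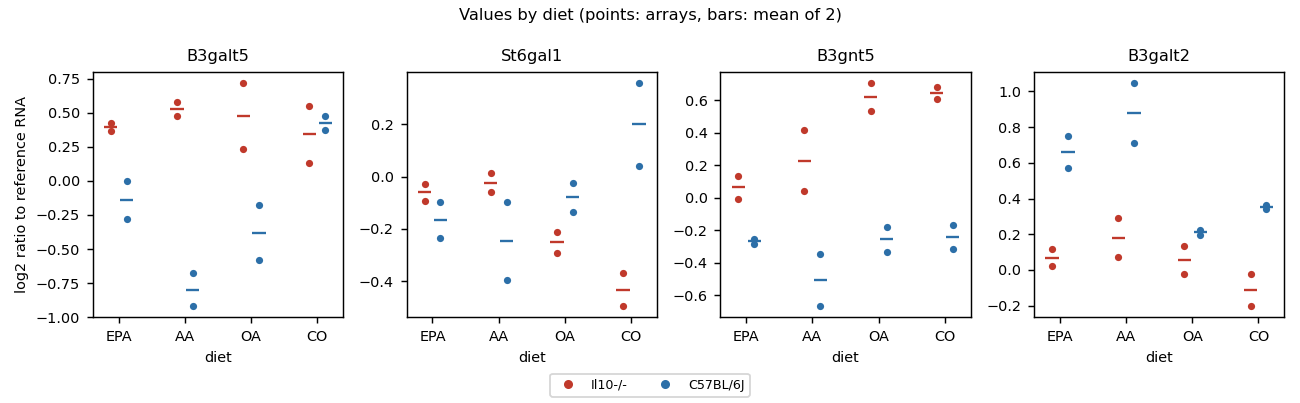
Log2 ratio to the reference RNA by diet in Il10-/- (red) and C57BL/6J colon (blue) for 4 members with low p-values in diet or interaction tests; points are arrays and bars the mean of 2. B3galt5 of C57BL/6J colon is near that of Il10-/- colon on CO and below it on the other diets, and none of the diet tests passed the threshold.

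Genes that feed or complete the same pathways were counted in lists chosen for the purpose, beside 17.3% of all features called and a median difference of -0.01. Sialic acid supply had 2 of 8 higher and 0 lower, median 0.03: Nans, which makes the sialic acid backbone (0.35 ± 0.08, adjusted p = 0.00677), and Cmas, which activates it (0.34 ± 0.05, adjusted p = 5.84e-04). Sialidases and the sialate esterase had 0 of 5 higher and 2 lower, median -0.16: Siae (-0.36 ± 0.06) and the lysosomal sialidase Neu1 (-0.33 ± 0.08), which had a feature at the shared value on 12 arrays. Fucose supply had 1 of 8 higher and 0 lower, median -0.01: Gmds, the first enzyme of GDP-fucose synthesis (0.54 ± 0.07, adjusted p = 2.49e-04). Hexosamine and UDP-sugar supply had 0 of 18 higher and 3 lower, median -0.05, with Galm (-0.39 ± 0.09) the largest.

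Among 13 other transferases 2 rose and 2 fell, median -0.05. C1galt1, which makes core 1 of O-glycans, rose by 0.54 ± 0.07 (adjusted p = 1.43e-04) and its chaperone C1galt1c1 by 0.14 ± 0.04 (adjusted p = 0.0409), while Ugt8a, which makes galactosylceramide, stood at -0.45 ± 0.06 and Pofut1, which fucosylates Notch, at -0.22 ± 0.05. Glycan sulfotransferases had 0 of 10 higher and 3 lower, median -0.15, with Gal3st2, a galactose sulfotransferase, at -1.0 ± 0.09 (adjusted p = 1.09e-05), Chst1 at -0.66 ± 0.10 and Chst8 at -0.34 ± 0.07. N-glycan transfer and trimming had 4 of 21 higher and 1 lower, median 0.05. At the ends were Ostc of the oligosaccharyltransferase (0.25 ± 0.05) and the mannosidase Man1a (-0.26 ± 0.05). In this list Rpn1 had a feature at the shared value on 16 arrays and Rpn2 on 15.

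Of 13 mucins 2 rose and 3 fell, median -0.08: Muc4, a membrane mucin (0.59 ± 0.09, adjusted p = 4.52e-04), and Muc5ac, a secreted gastric mucin (0.25 ± 0.08), were higher, and Muc16 (-0.76 ± 0.09, adjusted p = 7e-05), Emcn (-0.65 ± 0.07) and Muc6 (-0.16 ± 0.04) lower. Muc2, the main mucin of the colon, and Muc3 were at the shared value on 16 arrays and Muc13 on 15, so their levels were not measured. Among 6 selectins and carriers of their ligands 2 rose and 1 fell: Selplg, the P-selectin ligand of leukocytes (0.42 ± 0.05), and Glycam1 (0.31 ± 0.07) were higher and Cd34, of endothelium and other cells (-0.61 ± 0.08), lower. Of 15 galectins and siglecs 1 rose, Lgals8 (0.21 ± 0.05), and 2 fell, with Lgals12, a galectin of adipocytes, the lower at -0.44 ± 0.12. Lgals3 was at the shared value on 16 arrays, so its level was not measured. Lgals4 had a feature at that value on 16 arrays, Cd164 on 13 and Mag on 4. Such genes still entered the counts and medians of their lists.

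Markers of several cell types differed between the genotypes beside these genes, and their part in the glycosyltransferase differences was not tested. Of 4 leukocyte markers 2 were higher, Cd79b (0.89 ± 0.10) and Ptprc (0.64 ± 0.07), and the median of the list lay between 0.26 and 0.61 on Il10-/- arrays and between -0.09 and 0.09 on C57BL/6J arrays. Of 6 plasma cell markers 4 were higher, with list medians of 0.39 to 0.79 on Il10-/- arrays and 0.09 to 0.37 on C57BL/6J arrays. Smooth muscle had 4 of 5 markers lower (list medians of 0.02 to 0.49 on Il10-/- arrays, 0.36 to 0.63 on C57BL/6J arrays). Acta2 had a feature at the shared value on 16 arrays, Cnn1 on 11 and the adipocyte gene Fabp4 on 12, and the smooth muscle median of C57BL/6J CO replicate 2 was the shared value of that array, 0.615. Endothelium had 3 of 4 lower, with Emcn also in the mucin list (-1.68 to -1.45 on Il10-/- arrays, -1.26 to -0.92 on C57BL/6J arrays), and adipocytes 4 of 4 (-0.22 to 0.92 on Il10-/- arrays, 0.23 to 2.20 on C57BL/6J arrays). Of 3 pancreas markers 1 was lower, and of the 12 genes of the reference tissues 0 were called, with 1 at an unadjusted p under 0.05.

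The colon itself is marked by goblet cell and colonocyte genes. None of 8 goblet cell markers was called (1 at an unadjusted p under 0.05), and 1 of 7 colonocyte markers, the chloride exchanger Slc26a3, was lower (-0.65 ± 0.14, adjusted p = 0.00553). Most of these abundant genes, Muc2, Tff3, Clca1, Agr2, Zg16, Car1, Krt20 and Vil1 among them, had a feature at the shared value on 16 arrays, so the amount of epithelium was not measured by them.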

How the data were processed

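The deposited values are the authors' processed log ratios, treated here as log2 ratios of sample to reference, with neither base nor direction stated; limma, without a version, is the tool in the submitters' processing notes, and how background and normalization were handled is not given in the sources. Features with a value in every group (37252 of 44290) were averaged per platform symbol. Differences were fitted with limma 3.58.1 in R 4.3.3 (a mean for each of the 8 groups, 16 arrays, empirical Bayes, 8 residual and 4.07 prior degrees of freedom) with Benjamini-Hochberg adjustment across 25892 genes and unnamed features; called means an adjusted p under 0.05. The procedure was tested on simulated data. Tables and figures used Python 3.11.15, numpy 2.4.6, pandas 2.3.3 and matplotlib 3.10.9. The members, role classes and gene lists were chosen with earlier results of these data known. Named are every member called in any comparison, the member of largest difference in each role class, the 3 of smallest p in each diet comparison without calls, and the largest called rise and fall of each list; other names were chosen after their values were seen. Deviations of same-numbered arrays correlated between -0.364 and 0.398 over 28 pairs of groups (12 above 0.1). These values do not settle whether pool numbers pair arrays across groups. No block was used in the main fit. No pair of arrays held identical values.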

Additional observations from a re-analysis of the deposited data

How the results depend on the processing

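Over 23 other settings, 18 of the 25 members called over all diets stayed called in each, and B4galnt1 (lost in 1, largest adjusted p 0.0501), B4galnt2 (10, 0.0773), B4galt1 (12, 0.0768), B4galt3 (8, 0.0568), Fut1 (13, 0.0927), Gcnt2 (8, 0.0603) and Gcnt3 (9, 0.0694) did not. When 1 array was left out, between 19 and 25 of these 25 stayed called, and the count of all members called lay between 19 and 31. Leaving out 1 array gave 4 to 21 on CO, 3 to 11 on OA, 1 to 5 on EPA and 1 to 6 on AA; 0 to 1 for AA against OA and 0 to 1 for EPA and AA against OA and CO in Il10-/- colon; 0 to 8 for OA against CO, 0 to 2 for EPA and AA against OA and CO and 0 to 5 for any diet difference in C57BL/6J colon; and 0 to 1 for the difference of the EPA and AA effect and 0 to 2 for the interaction.

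With array weights the counts were 1 on CO, 20 on OA, 1 on EPA and 2 for EPA and AA against OA and CO in Il10-/- colon (B3gnt5 and St3gal3). Fitting only the groups compared gave 1 on CO, 2 on EPA and 3 on AA. Features present on all 16 arrays gave 7 on EPA. Counting Il10-/- OA replicate 1 as EPA gave 3 on OA. For the members called on a diet in the main fit, array weights and fitting only the compared groups left the genotype difference the same. Only the adjusted p of limma moved. St3gal5 on CO stood at -1.85 in each, with adjusted p = 0.0131 in the main fit, 0.126 with array weights and 0.0625 with only the compared groups. The cause of the shifts in counts was not tested.

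With a replicate block, though whether the pool numbers pair the arrays is not known, 26 members were called over all diets. The counts were 13 on CO, 9 on OA, 5 on EPA, 6 on AA and 1 for any diet difference in C57BL/6J colon (B3galt5). All 25 members stayed called, and no other diet comparison gained a call.

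Among the 30 members recomputed under every setting, differences that changed sign belonged to B4galt1 (-0.11 for its lowest feature), B4galt7 (-0.038 without the CO arrays), Fut4-ps1 (0.05 without the CO arrays, 0.003 for its highest feature) and St6gal1 (0.052 and 0.002 in the same settings). Of all 53 members with several kept features, 21 had kept features on both sides of 0. The settings without the CO or the EPA arrays were chosen after seeing the data. Without intensities, spots near background could not be told from others.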

Other observations

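Besides Mgat5, the rule on values in every group left out 5 features of members. Their values overlapped between the genotypes. The B3galt2 feature lay between -0.63 and 0.10 on 3 Il10-/- arrays and between -0.11 and 0.26 on 3 C57BL/6J arrays, and the Fut9 feature, of a fucosyltransferase that makes Lewis X, between -0.10 and 0.38 on 4 Il10-/- arrays and between -0.11 and 0.27 on 6 C57BL/6J arrays. Both Galnt13 features and the St8sia3 feature spanned -0.30 to 0.56 on Il10-/- arrays and -0.34 to 0.39 on C57BL/6J arrays.

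Members on the chromosome of Il10 other than Mgat5 were B3galt2 (97 tested genes away, difference -0.48), St8sia4 (85 away, 0.15, not called), Mgat4f (47 away, -0.02, not called), B3gnt7 (183 away, 0.30), B4galt3 (245 away, 0.23) and Mgat4a (453 away, 0.06, not called).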
